A study of Mus musculus with 8 samples.

Results

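Small nucleolar RNAs (snoRNAs) and the long noncoding RNAs that host them were followed in mouse peritoneal macrophages given the small molecule C498, LPS or both. Members were chosen by name and by measured values: rows named Snora, Snord or Snhg, or Gas5, with a TPM (the abundance of a transcript scaled by its length and by the sample's total) above 0 in at least 2 of the 8 samples. This left 21 of 163 such rows in a table of 55801 genes, of which 18 were host genes and 3 were short RNAs. Because detection chose the members, their being detected is a description, and it was not tested.

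The macrophages came from thioglycollate-treated C57BL/6 mice and formed 4 groups of 2 samples each. NC received vehicle (DMSO), LPS received vehicle and then 100 ng/ml lipopolysaccharide for 4 h, C498 received the compound at 15 µM, and C498+LPS received the compound for 0.5 h before the same LPS challenge. Nothing in the labels says that the 2 samples of a group came from separate animals, so p-values measure only the spread between these samples.

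Many box C/D snoRNAs (Snord genes) guide methylation of ribosomal RNA, and many box H/ACA snoRNAs (Snora genes) guide its pseudouridylation. These roles do not hold for every member of either class, and the role of the rows named here was not measured. Most snoRNAs are cut out of the introns of a host RNA. The spliced host RNA, often noncoding, is in many cases removed by nonsense-mediated decay when it is translated. Several host RNAs, Gas5 (growth arrest-specific 5) among them, begin with a run of pyrimidines, the element that ties the translation of ribosomal protein mRNAs to growth signals.

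The short RNAs and the host genes behaved differently in the table. Of 144 short RNA rows (38 Snora and 106 Snord), 136 were at 0 TPM in all 8 samples, and 3 were members (2.08%). Of 19 host gene rows, 18 were members (94.7%), and 15 of them were above 0 in all 8 samples. Detection differed with the length of the row too. Rows of up to 300 bases were above 0 in at least 2 samples in 111 of 9043 cases (1.23%), rows over 300 bases in 44.8% of cases, and other named short RNAs (Scarna, Rnu, Rny, Mir and the like) in 4 of 1214 cases (0.329%). The short RNA rows had a median length of 94 bases and the host rows of 1676 bases, and the part of length in this difference was not tested. Per the paper, the material fragmented for sequencing was mRNA, and the part of this in the difference was not tested either. A row at 0 TPM is thus no measure of how much of a snoRNA the cells held.

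Just inside the rule stood Snora73a, above 0 in exactly 2 samples, and Snora73b, above 0 in 3. Just outside it, each above 0 in 1 sample, stood 5 Snord3b rows. Of the 2 rows named Snord3b4, 1 was at 2.25 TPM in NC sample 2 and 1 at 3.67 TPM in C498+LPS sample 2, and Snord3b1, Snord3b2 and Snord3b3 were each at 3.67 TPM in C498+LPS sample 2. These rows belong to a multicopy family, so which copy the reads came from is uncertain. Among host rows Snhg7os, an antisense RNA whose reads cannot be told apart from its partner's without strand, was above 0 in 2 samples at 0.02 TPM each, and the Snhg9 row of 183 bases was at 0.

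The sequences of the 3 short RNA members are shown because what little snoRNA signal the table holds rests on them. They are GENCODE M21 transcripts on GRCm38. In Snora73a (chr4:132352775-132352979, minus strand) and Snora73b (chr4:132352322-132352526, minus strand), both in the Snhg3 locus, capitals mark the 7 of 205 positions that differ. In Snora43 (chr2:26637847-26637985, minus strand), capitals mark the 11 bases before and the 1 base after that a second, shorter Snora43 row of 127 bases lacks.
Snora73a: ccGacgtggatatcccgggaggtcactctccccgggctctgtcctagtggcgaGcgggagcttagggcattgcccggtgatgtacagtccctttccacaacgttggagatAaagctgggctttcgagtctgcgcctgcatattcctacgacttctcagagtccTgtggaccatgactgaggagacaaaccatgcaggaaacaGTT
Snora73b: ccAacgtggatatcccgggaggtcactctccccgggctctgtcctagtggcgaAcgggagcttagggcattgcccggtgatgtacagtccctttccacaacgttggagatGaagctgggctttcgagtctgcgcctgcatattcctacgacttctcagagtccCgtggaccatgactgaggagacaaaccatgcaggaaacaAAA
Snora43: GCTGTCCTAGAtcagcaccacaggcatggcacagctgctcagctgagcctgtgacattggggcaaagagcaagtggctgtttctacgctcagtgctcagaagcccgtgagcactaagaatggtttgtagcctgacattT
The 2 Snora73 copies are 96.6% identical, so reads could be split between them or with Snhg3, and their separate values are uncertain. The shorter Snora43 row, whose sequence lies whole within the longer, was at 0 in every sample.

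Snora73b showed the widest replicate spread of the members. Snora73b was at 77.8 and 0 TPM in NC, at 0 in both LPS samples, at 29.4 and 0 TPM in C498, and at 65.0 and 0 TPM in C498+LPS. In 3 of the 4 groups sample 1 held all of its signal, and the replicates differed by up to 6.3 on the log2(TPM + 1) scale. Snora73a was at 0 in all 6 samples of NC, LPS and C498, and at 35.5 and 18.9 TPM in C498+LPS. Snora73a was thus listed above 0 only in C498+LPS. It became a member, and passed the test's filter of a mean of 1 TPM, only through those 2 samples, so its calls in limma against LPS and against C498 are not evidence of a difference, and no fold is given against groups at 0. The summed signal of the short RNA members was between 0.66 and 101 TPM over the samples.

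Snora43 was steadier and lower than the Snora73 rows. It was at 1.51 and 0.70 TPM in NC, 0.66 and 0.68 in LPS, 1.22 and 1.30 in C498, and 0.67 and 0.99 in C498+LPS. The 2 C498 samples were above both LPS samples, and the NC samples lay on either side of the C498 samples. Its mean over the 8 samples was below the filter of 1 TPM and it was not tested. Of the tested rows of up to 300 bases, 80 of 162 differed by 1 or more on the log2 scale between the 2 NC samples. The counts were 52 in LPS, 56 in C498 and 69 in C498+LPS. Over all 12189 genes they were 690 in NC, 291 in LPS, 328 in C498 and 371 in C498+LPS. A short row with signal in 1 sample can pass the filter through that sample alone, which fixes such a difference in advance.

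**Figure D1:**
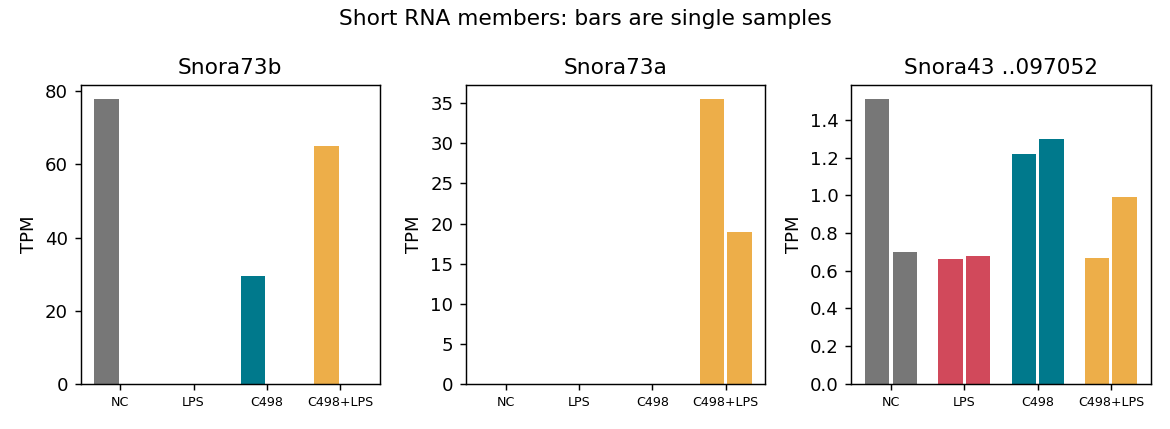
TPM of Snora73b, Snora73a and Snora43 in each sample, 1 bar per sample and 2 samples per group, with axes from 0. Snora73b is at 0 in 1 of 2 samples of NC, C498 and C498+LPS, Snora73a is above 0 in the 2 C498+LPS samples, and Snora43 stays between 0.66 and 1.51 TPM.

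The host genes held far more signal. Their summed TPM was 353 and 431 in NC, 249 and 274 in LPS, 541 and 536 in C498, and 473 and 545 in C498+LPS. Both LPS samples lay below both NC samples, and the 4 samples with C498 lay above the 4 without. Gas5 made up 27.7% of the mean sum and Snhg6 20.8%, and 14 of the 18 host members had a mean of at least 1 TPM and were tested. Per-gene TPM is scaled by length, so these levels can be set side by side.

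By mean TPM the tested host genes ran from Gas5 (118 TPM) through Snhg6 (88.4), Snhg1 (45.7), Snhg3 (44.2), Snhg8 (31.3), Snhg12 (20.6), Snhg15 (19.7), Snhg20 (19.1), Snhg5 (11.4), Snhg17 (9.32), Snhg16 (8.65) and one Snhg4 row (4.82) to Snhg18 (1.31) and the other Snhg4 row (1.30). The 2 Snhg4 rows overlap in the annotation, so their reads could be split and both are uncertain. Snhg18 and the lower Snhg4 row passed the filter of 1 TPM only through their highest group (C498+LPS and C498), since the means of their other samples were 0.885 and 0.947 TPM, so their tests against that group are not evidence of a difference, and counts that they enter are also given for the other 12 tested host genes. The other 4 host members were below the filter and were not tested. Snhg10 was at 0.29 and 3.07 TPM in NC, 0.76 and 0 in LPS, 0 and 2.12 in C498, and 0.68 and 0.21 in C498+LPS, so its replicates differed more than its groups. Snhg14, whose locus holds 208 annotated snoRNA genes, ranged from 0.19 to 1.83 TPM, Snhg11 from 0 to 0.19 and Snhg7os from 0 to 0.02.

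Replicate spread was also taken over the tested host genes. The medians of the replicate differences on the log2 scale were 0.37 in NC, 0.35 in LPS, 0.29 in C498 and 0.21 in C498+LPS, against 0.29, 0.16, 0.13 and 0.18 over all genes. NC sample 2 was above NC sample 1 by a median of 0.37 in the host genes, whereas the median over all genes was -0.20.

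**Figure D2:**
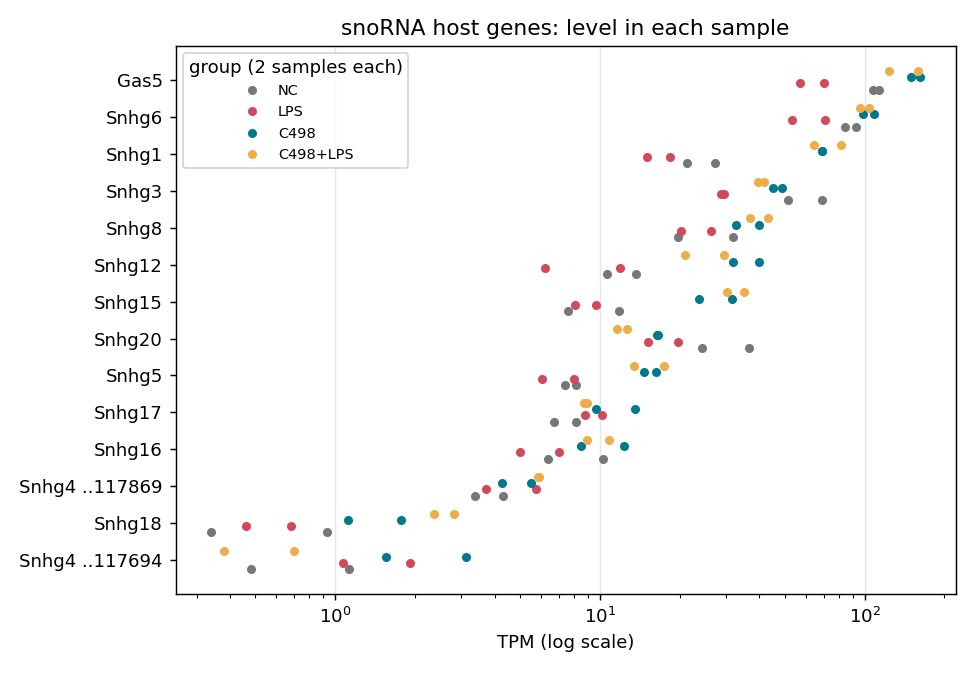
TPM of each tested host gene in all 8 samples on a log axis, 2 points per group, genes ordered by mean. Gas5 has the highest mean, at 57.1 to 162 TPM over the samples, and Snhg18 and the lower Snhg4 row are near 1 TPM. In LPS sample 2 Snhg6 (71.0 TPM) is above Gas5 (69.9 TPM).

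LPS vs NC asks how LPS alone moved these RNAs. Gas5, a noncoding RNA with 10 annotated snoRNA genes in its locus, was at 107 and 114 TPM in NC and at 57.1 and 69.9 in LPS. Both LPS samples were lower, and the log2 change was -0.79 ± 0.15 (SE, adjusted p = 0.00802, limma), which is under 2-fold. Snhg3, the Snora73 host, was at 51.5 and 68.9 TPM in NC and at 28.7 and 29.4 in LPS, a change of -1.01 ± 0.15 (adjusted p = 0.00265). Called here means a difference of 2-fold or more with an adjusted p no higher than 0.05, and Snhg3 was the 1 host gene called. Among the 12189 genes tested 6.68% were called lower and 5.55% higher.

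The adjusted p of Snhg3 was at most 0.0384 in the 17 alternative analyses, but the difference was under 2-fold in 4 of them, after centring each sample on its median gene (-0.84), after quantile normalization (-0.91), without LPS sample 1 (-0.996) and without NC sample 2 (-0.81). Snhg20, a host of 1 annotated snoRNA gene, was at 24.2 and 36.6 TPM in NC and at 15.1 and 19.7 in LPS. Both LPS samples were below both NC samples, with a change of -0.75 (adjusted p = 0.0357), which became -1.04 without NC sample 1 (adjusted p = 0.0107) and -0.46 without NC sample 2 (adjusted p = 0.102). Snhg6, which was at 84.2 and 92.4 TPM in NC and 53.3 and 71.0 in LPS, had a change of -0.51 (adjusted p = 0.0367), and of -0.31 without LPS sample 1 (adjusted p = 0.173).

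At any fold, 4 of 14 host genes had an adjusted p of 0.05 or less, against 29.6% of all genes, a share close to the background. Of the remaining 10, Snhg1 had the lowest adjusted p, at 21.4 and 27.1 TPM in NC and 18.4 and 15.0 in LPS (-0.51, adjusted p = 0.0616). Snhg17 was at 6.68 and 8.09 TPM in NC and 10.2 and 8.78 in LPS (0.32, adjusted p = 0.266). Snhg16, a host of 3 annotated snoRNA genes, was at 6.39 and 10.2 TPM in NC and 4.98 and 6.99 in LPS, and the groups overlapped (-0.40, adjusted p = 0.327). The higher Snhg4 row was at 4.29 and 3.38 TPM in NC and 5.72 and 3.71 in LPS, also with overlap (0.22, adjusted p = 0.520). The median change over the 14 host genes was -0.27, with 11 negative, against -0.17 over all genes tested. Over the 12 that did not pass the filter through 1 group it was -0.42. Centring each sample on its median gene moved the median of all genes from -0.17 to -0.00054 in LPS vs NC, from 0.014 to -0.11 in C498 vs NC and from -0.18 to 0.038 in C498+LPS vs C498, and relative to the median of all genes Gas5 stood at -0.62 and Snhg3 at -0.84 under LPS.

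Markers of other cell types differed with C498, and these values stand beside each C498 result that follows. Macrophage markers were all present, with 8 of 8 tested and a summed level of 17938 to 20590 TPM without C498 and 12420 to 16075 with it. Lyz2 made up most of that sum, and without it the sums, in which Cd14 was higher with C498 in both comparisons, were 4115 to 5148 TPM without C498 and 4496 to 4966 with it. The changes of 6 of 8 markers were negative in C498 vs NC (median -0.27) and of 7 of 8 in C498+LPS vs LPS (median -0.63). In the latter Adgre1 was at -0.92 (adjusted p = 0.0047) and Csf1r at -0.91 (adjusted p = 0.0154), both under 2-fold, while Cd14 was called higher in C498 vs NC (1.47, adjusted p = 0.000121). Mesothelial and fibroblast markers summed to 127 to 174 TPM in NC and LPS and to 544 to 803 TPM in the samples with C498, and 4 of 5 tested markers were called higher in each C498 comparison. T cell markers summed to between 0.89 and 4.96 TPM, B cell markers to between 3.65 and 13.8, and eosinophil and mast cell markers to between 2.11 and 6.46 with Epx at 0. Neutrophil markers summed to 75.9 to 128 TPM in NC, 89.9 to 116 in LPS, 51.6 to 54.0 in C498 and 71.3 to 80.4 in C498+LPS. Nearly all of this was S100a8, at 48.9 to 128 TPM. S100a9, Ly6g and Mpo were at most 0.86, 2.62 and 0.05 TPM, and Elane was at 0. S100a8, the 1 neutrophil marker tested, stood at -0.94 in C498 vs NC and at -0.44 in C498+LPS vs LPS. The part of these markers in the host gene changes was not tested. In bulk samples fewer cells of a type and less RNA per cell cannot be told apart.

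C498 vs NC asks what the compound did without LPS. Snhg1 was at 21.4 and 27.1 TPM in NC and at 68.9 in both C498 samples, Snhg12 at 10.6 and 13.7 against 39.9 and 31.8, and Snhg15 at 7.55 and 11.8 against 31.5 and 23.6. In each gene both C498 samples lay above both NC samples. The changes were 1.48 ± 0.17 for Snhg1 (adjusted p = 0.00248), 1.49 ± 0.30 for Snhg12 (adjusted p = 0.0205) and 1.44 ± 0.23 for Snhg15 (adjusted p = 0.00917), all by limma. These 3 of the 12 host genes that did not pass the filter through 1 group were called higher and 0 lower, against 5.64% higher and 1.36% lower over all genes.

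Snhg1, known as the host of several box C/D snoRNAs and with 8 annotated snoRNA genes in its locus, was called in each of the 17 alternatives. Snhg12 lost its call in 5, with an adjusted p of up to 0.145 without C498 sample 1. Snhg15 lost its call in 2, at 0.0882 without C498 sample 1 and 0.0738 when only the 2 groups were fitted. Over the 17 alternatives the change of Snhg12 ran from 1.32 to 1.66 and that of Snhg15 from 1.15 to 1.73. At any fold, 5 of the same 12 had an adjusted p of 0.05 or less, against 15.5% of all genes.

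Other host genes differed by less than 2-fold on the log2(TPM + 1) scale, which understates the change of low genes such as Snhg18 and the lower Snhg4 row. Snhg5 was at 7.36 and 8.15 TPM in NC and 14.7 and 16.3 in C498 (0.91, adjusted p = 0.0216). Snhg20 was at 24.2 and 36.6 TPM in NC and 16.6 and 16.5 in C498, a change of -0.81 (adjusted p = 0.0438), which became -1.10 without NC sample 1 (adjusted p = 0.0129) and -0.53 without NC sample 2 (adjusted p = 0.122). The other negative value was that of Snhg3, at -0.34 (adjusted p = 0.159). Gas5 was at 149 and 162 TPM in C498, above both NC samples, with an adjusted p of 0.0702 (0.49). The median change of the 12 host genes that did not pass the filter through 1 group was 0.50, with 10 positive, against 0.014 over all genes, and over all 14 tested it was 0.54.

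**Figure D3:**
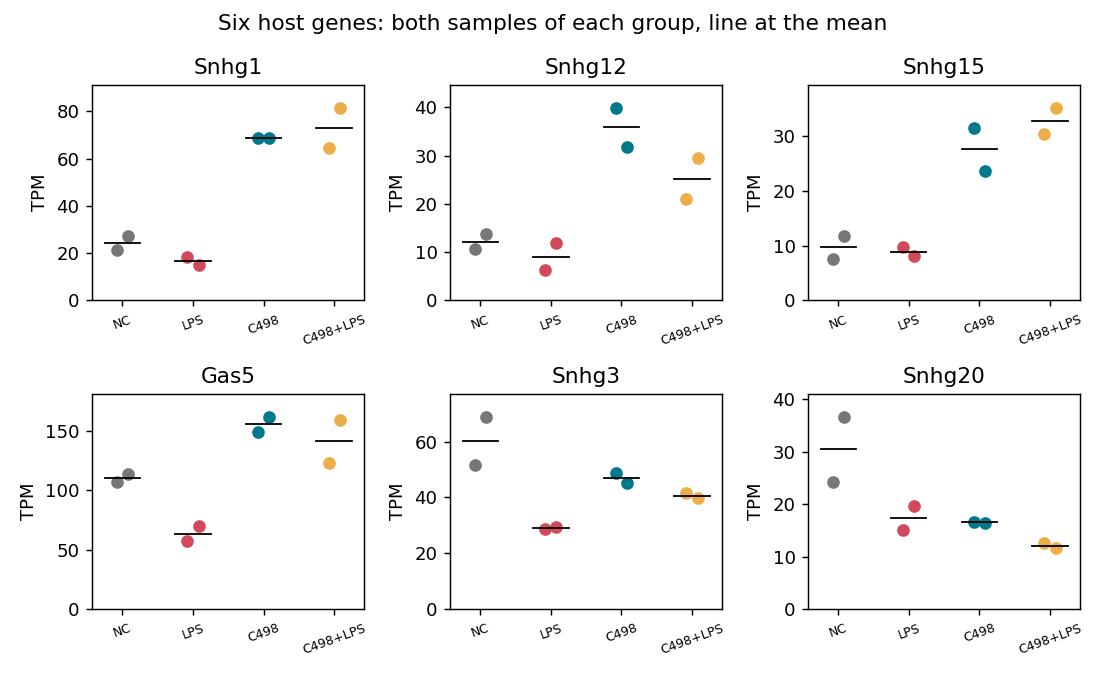
TPM of Snhg1, Snhg12, Snhg15, Gas5, Snhg3 and Snhg20 in both samples of each group, with a line at the group mean and axes from 0. Snhg1, Snhg12 and Snhg15 are higher in all 4 samples with C498 than in the 4 without, and Snhg20 is highest in the 2 NC samples.

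C498+LPS vs LPS asks how pretreatment moved the RNAs under LPS. Snhg1 was at 18.4 and 15.0 TPM in LPS and at 64.4 and 81.4 in C498+LPS, and Snhg15 at 9.67 and 8.05 against 30.3 and 35.0. Both C498+LPS samples were well above both LPS samples. The changes were 2.06 ± 0.17 for Snhg1 (adjusted p = 0.000804) and 1.77 ± 0.23 for Snhg15 (adjusted p = 0.00339), and both were called in each of the 17 alternatives. Gas5 was at 57.1 and 69.9 TPM in LPS and 123 and 159 in C498+LPS, with a change of 1.14 ± 0.15 (adjusted p = 0.00349). Gas5 fell under 2-fold without C498+LPS sample 2 (0.95) and without LPS sample 1 (0.99).

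Snhg12 was at 6.20 and 11.9 TPM in LPS and 20.96 and 29.5 in C498+LPS (1.42, adjusted p = 0.0205). Snhg5, a host of 2 annotated snoRNA genes, was at 7.99 and 6.05 TPM against 13.4 and 17.4 (1.03, adjusted p = 0.0121). Snhg18 was at 0.46 and 0.68 TPM against 2.37 and 2.82 (1.20, adjusted p = 0.0309), but passed the filter only through the C498+LPS samples, so this call is not evidence of a difference. Snhg12 and Snhg18 lost their calls in 7 alternatives each (of 17 and of 16) and Snhg5 in 5. Snhg6 was at 53.3 and 71.0 TPM against 96.0 and 104, a difference under 2-fold (0.69, adjusted p = 0.0201).

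Of the 12 host genes that did not pass the filter through 1 group, 5 were called higher and 0 lower, against 5.39% higher and 2.18% lower over all genes. At any fold, 6 of these 12 had an adjusted p of 0.05 or less, against 16.8% of all genes. The count of 5 was lower without C498+LPS sample 2 and without LPS sample 1, where the share over all genes was not taken. Over the 17 alternatives the lowest changes were 1.89 for Snhg1, 1.65 for Snhg15, 0.999 for Snhg12, 0.95 for Gas5 and 0.86 for Snhg5. With Snhg18 the called genes numbered 6 of 14. The median change of the 12 was 0.73, against 0.0065 over all genes. Snhg8 was at 26.3 and 20.2 TPM in LPS and 43.0 and 37.0 in C498+LPS (0.77, adjusted p = 0.0723). Snhg3 was at 28.7 and 29.4 TPM against 41.6 and 39.6 (0.47, adjusted p = 0.0706). Snhg20 was at 15.1 and 19.7 TPM against 12.6 and 11.6 (-0.48, adjusted p = 0.175). The 2 comparisons of C498 share no samples. Snhg1, Snhg12 and Snhg15 rose in both, and in both the 2 samples with C498 were below the 2 without for Snhg20.

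**Figure D4:**
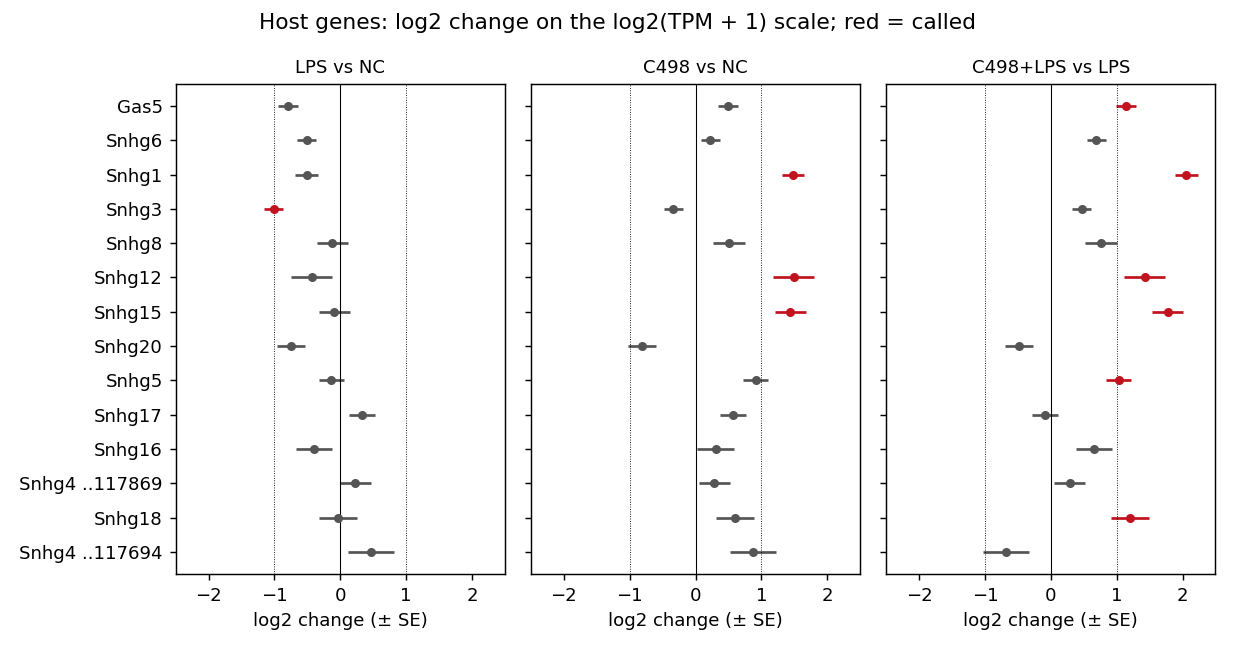
log2 change with its standard error of the 14 tested host genes in LPS vs NC, C498 vs NC and C498+LPS vs LPS on the log2(TPM + 1) scale, dotted lines at a 2-fold change, called genes in red. Snhg3 is the called gene under LPS, and Snhg1, Snhg12 and Snhg15 are called in both C498 comparisons.

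Across all samples, the 4 with C498 lay above the 4 without in 7 of the 12 host genes that did not pass the filter through 1 group (Gas5, Snhg6, Snhg1, Snhg8, Snhg12, Snhg15 and Snhg5), or 8 of 14 with Snhg18, against 12.7% of all genes tested, and below them in 0 host genes, against 6.46%. After centring the count was 5 (Gas5, Snhg1, Snhg12, Snhg15 and Snhg5), against 11.1% of all genes. The 4 samples with LPS lay below the 4 without in 1 host gene, Snhg3, against 21.3% of all genes.

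C498+LPS vs C498 shows the LPS response after the compound. Called in this comparison by limma were 0 host genes, against 2.52% of genes higher and 3.13% lower. At an unadjusted p under 0.05 there was 1 of 14, against 31.9% of all genes. It was the lower Snhg4 row, which passed the filter only through the C498 samples, at 1.56 and 3.13 TPM against 0.38 and 0.70 (-1.09, adjusted p = 0.0785). Gas5 was at 149 and 162 TPM in C498 and 123 and 159 in C498+LPS (-0.15, adjusted p = 0.551). Snhg1, at 68.9 in both C498 samples, was at 64.4 and 81.4 TPM (0.071, adjusted p = 0.819).

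The interaction of C498 and LPS asks whether the LPS response differed with the compound. Called by limma were 0 host genes, against 0.0738% higher and 0.394% lower over all genes. At an unadjusted p under 0.05 there were 4 of the 12 host genes that did not pass the filter through 1 group, against 11.1% of all genes. Snhg3 had an interaction of 0.81 ± 0.21 (adjusted p = 0.209), Gas5 of 0.65 ± 0.21 (adjusted p = 0.341) and Snhg1 of 0.58 ± 0.24 (adjusted p = 0.447). Snhg17 went the other way, with -0.66 ± 0.28 (adjusted p = 0.450). So did the lower Snhg4 row, at -1.56 ± 0.50 (adjusted p = 0.323), which passed the filter only through the C498 samples that enter this value. A difference in the LPS response of these genes was not detected with 2 samples per group. In 1 alternative, without NC sample 1, Snhg3 was called (1.02, adjusted p = 0.0440).

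Each host locus was matched to GENCODE M21, which holds all 18 host members on GRCm38. Of 251 annotated snoRNA genes in these loci, 211 were intronic, and 40 lay in, or partly in, exons of at least 1 annotated transcript. The Snhg14 locus, which was not tested, held 208 of the 251, nearly all intronic. By contrast, all 10 at Gas5, 8 at Snhg1, 5 at Snhg12 and 1 at Snhg15 lay in exons of at least 1 annotated transcript. Of the 45 that have a row in the table, 43 were at 0 in every sample, including 9 of 9 at Gas5, 8 of 8 at Snhg1, 4 of 4 at Snhg12 and 1 of 1 at Snhg15. The host RNA and its snoRNAs therefore cannot be compared in this table for these genes. The 2 rows above 0 are the Snora73 copies at Snhg3.

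The start regions are shown for the 3 host genes called in both C498 comparisons and for Gas5, the host gene with the highest mean TPM. They are RefSeq sequences on GRCm38.p6, from 100 bases before to 50 after the start, with capitals on TGACGTCA or CACGTG matches and on runs of C followed by at least 4 C or T bases within 20 bases of the start. They are Gas5 at chr1:161035066-161035215 (plus strand), Snhg1 at chr19:8723387-8723536 (plus strand), Snhg12 at chr4:132308578-132308727 (plus strand) and Snhg15 at chr11:6528711-6528860 (minus strand).
Gas5: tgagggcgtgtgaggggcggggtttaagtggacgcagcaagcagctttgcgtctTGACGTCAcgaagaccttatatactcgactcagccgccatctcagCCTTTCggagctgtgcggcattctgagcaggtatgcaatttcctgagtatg
Snhg1: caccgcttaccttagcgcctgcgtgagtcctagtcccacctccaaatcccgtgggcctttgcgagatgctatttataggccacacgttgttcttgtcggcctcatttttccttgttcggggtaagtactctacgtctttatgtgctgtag
Snhg12: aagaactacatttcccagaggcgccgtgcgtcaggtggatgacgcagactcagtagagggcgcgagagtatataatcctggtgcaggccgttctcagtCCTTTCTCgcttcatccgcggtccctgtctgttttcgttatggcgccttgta
Snhg15: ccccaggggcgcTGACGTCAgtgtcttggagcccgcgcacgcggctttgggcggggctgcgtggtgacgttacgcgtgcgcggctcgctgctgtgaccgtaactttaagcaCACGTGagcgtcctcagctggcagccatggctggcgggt
The Gas5 start shown is the second of 2 in RefSeq. The Snhg1 window holds no match to these letters near the start.

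RefSeq held 19 promoters for 15 of the 17 host symbols, and all shares below come from windows of 250 bases before to 50 after the start. A C followed by at least 4 C or T at the start itself was found in 10.5% of the host promoters (Gas5 and Snhg8), against 2.51% of 32851 promoters. Within 20 bases of the start such runs were in 47.4%, against 45.9%. TGACGTCA, searched on both strands, was in 10.5% (Gas5 and Snhg15), against 1.79%. CACGTG was in 5.26% (Snhg15), against 7.15%, and TGATGNAA in 0 promoters, against 3.97%. TGACNNNGC was in 26.3% (Snhg17, Snhg18, Snhg7os and Snhg8), against 12.4%. The 2 Snhg17 windows overlap and hold the same TGACNNNGC site, which was counted in both. These are matches of letters, with no test.

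Snhg1 is transcribed away from Slc3a2, the heavy chain of an amino acid transporter, whose start lies 106 bases away. Slc3a2 was at 380 and 367 TPM in NC, 673 and 692 in LPS, 636 and 608 in C498, and 749 and 694 in C498+LPS. It was higher in LPS vs NC (0.87, adjusted p = 0.000346) and in C498 vs NC (0.73, adjusted p = 0.00168), both under 2-fold, and had an adjusted p of 0.558 in C498+LPS vs LPS (0.079). In LPS vs NC Slc3a2 was thus higher where Snhg1 was at -0.51, and in C498+LPS vs LPS it stood at 0.079 where Snhg1 was at 2.06. The difference between the 2 genes was not tested.

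The other genes of the snoRNA pathway were measured in lists of proteins. Among 8 core snoRNP proteins 0 were called in any of the 5 comparisons, against at most 6.68% of all genes in either direction, so this count is near the background. Nop56, a core protein of box C/D particles, stood at 0.70 in C498 vs NC (adjusted p = 0.0112) and at 0.81 in C498+LPS vs LPS (adjusted p = 0.0055), both under 2-fold. The medians of that list were 0.20 and 0.44 in the same comparisons, against 0.014 and 0.0065 over all genes. Among 11 assembly factors 0 were called, also near the background, and their medians were 0.0061 and 0.18.

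Protein-coding genes that host snoRNAs were followed in a list of 43. Their medians were 0.24 in C498 vs NC, with 36 positive, and 0.32 in C498+LPS vs LPS, with 38 positive. Rpl12, a ribosomal protein, was called higher in both (1.08, adjusted p = 0.00613, and 1.32, adjusted p = 0.00233), and Eif5, a translation initiation factor, in the first (1.5, adjusted p = 0.000821). Wdr43, a ribosome biogenesis protein, was called higher in LPS vs NC (1.37, adjusted p = 0.00551), and 0 genes of the list were called lower in any comparison. These counts of 0 to 2 of 43 are near or below the shares called over all genes (5.39% to 5.64% higher in the 2 C498 comparisons and LPS vs NC, and 0.394% to 6.68% lower over the 5 comparisons). At any fold, 10 of 43 had an adjusted p of 0.05 or less in C498 vs NC, against 15.5% of all genes. The counts were 15 of 43 in C498+LPS vs LPS, against 16.8%, and 3 of 43 in LPS vs NC, against 29.6%.

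Of 15 nonsense-mediated decay factors, 13 had a positive change in C498 vs NC (median 0.23) and 12 in C498+LPS vs LPS (median 0.15). Magohb, of the exon junction complex, was called lower both in C498 vs NC (-1.23, adjusted p = 0.00539) and in the LPS-treated pair (-1.14, adjusted p = 0.00578). Of 16 tested genes of the nuclear exosome and 3 prime end processing, 0 were called in any comparison, which is near the background of at most 6.68% of all genes in either direction. At any fold, 4 of the 16 had an adjusted p of 0.05 or less in LPS vs NC, against 29.6% of all genes.

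**Figure D5:**
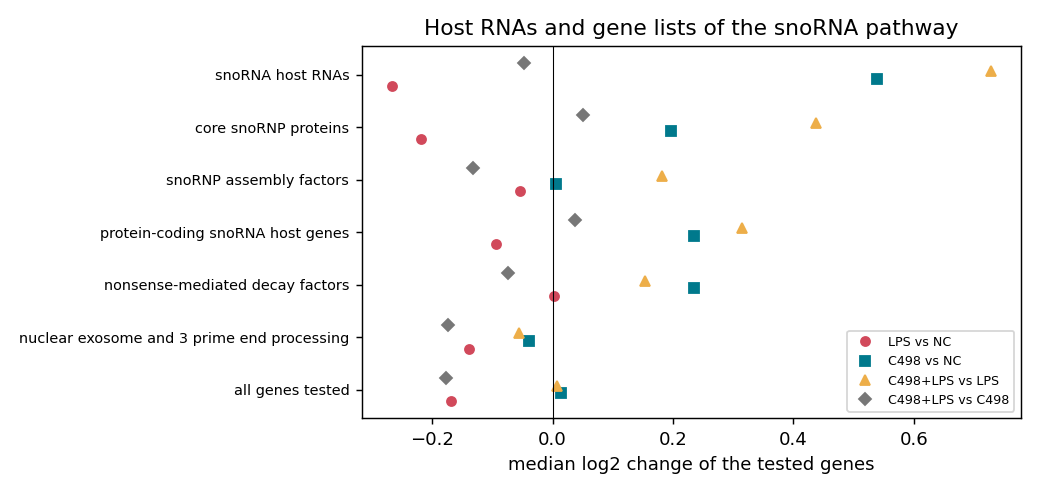
Median log2 change of the tested host RNAs and of 5 lists of the snoRNA and RNA decay pathways (marker lists not drawn) in 4 comparisons, 1 symbol per comparison, beside the median of all genes tested. The medians of all 14 tested host RNAs are 0.54 and 0.73 in C498 vs NC and C498+LPS vs LPS, against 0.50 and 0.73 without the 2 that passed the filter through 1 group.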

How the data were processed

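RNA was measured in 4 groups of 2 samples. Per the submitters' processing notes, reads were handled with fastp, HISAT2, StringTie and RSEM; the authors deposited TPM per gene, with 26 columns and 55801 rows. Genome build and annotation version are not given in the sources used here, so loci come from GENCODE M21 (GRCm38) and promoters from RefSeq GRCm38.p6, matched by identifier or symbol. TPM keeps no depth, so the number of reads behind a value is unknown.

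Members, gene lists, marker lists and motifs were chosen with earlier results of these data known. Values were taken as log2(TPM + 1). Of all rows, 12189 genes passed a filter (mean TPM no lower than 1) and were fitted with limma 3.58.1 in R 4.3.3 over all samples, with a trend on mean expression and 1 mean per group. Adjusted p are Benjamini-Hochberg values over all genes tested. Calls needed a 2-fold difference and an adjusted p no higher than 0.05. An exact permutation test of 2 against 2 samples cannot go below p = 0.333. Named were host genes called in any comparison or among the 15 with the highest mean TPM, and short RNAs by the same rule. The steps were checked on simulated data. Alternatives were other filters, pseudocounts and normalizations, no trend, no fold threshold, a replicate block, 2-group fits and leaving out each sample. A result for 1 gene of the decay list is not reported here.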

Additional observations from a re-analysis of the deposited data

Results flagged for a closer look

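Snora73a was picked out by the adjusted p of its interaction of C498 and LPS, 0.0128 (limma). That test is void as evidence of a differing LPS response, since the gene became a member and passed the filter only through the 2 samples that make the interaction. It was at 35.5 and 18.9 TPM in the 2 C498+LPS samples and listed at 0 in the other 6. The call was lost without C498 sample 1 (0.0565), LPS sample 1 (0.0891) or LPS sample 2 (0.0611), each value an adjusted p.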

How the results depend on the processing

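With no fold threshold the called host genes numbered 5 in C498 vs NC (against 15.5% of all genes) and 4 in LPS vs NC (against 29.6% of all genes). With the 2-fold threshold, LPS vs NC had 0 after centring or quantile normalization. Host genes with all C498 samples above the rest numbered 5 after centring, a check chosen after seeing the data. Of the short RNAs, 1 was above 0 in at least 4 samples. Leaving out 1 sample in turn changed the number of called host genes in some fits of C498 vs NC, C498+LPS vs LPS, LPS vs NC and the interaction. It also changed that of called short RNAs in the interaction. The share of all genes called was not taken in those fits, so such counts have no background. The median host change then ran from 0.051 to 0.61 in the interaction and from -0.52 to -0.083 in LPS vs NC. A lone sample was then assumed to vary like the other groups. Counts without genes that pass the filter through 1 group were also added after seeing the data. The cause of these shifts was not tested.

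The labels do not say whether same-numbered samples were paired. The correlations of their deviations were all positive and weak (0.040 to 0.17). With 2 samples per group they cannot show whether same-numbered samples shared an animal or a batch. With a replicate block 3 host genes were called in C498 vs NC and 6 in C498+LPS vs LPS (5 without Snhg18), as without it. No result reversed under the alternatives run, and 496 of the 540 checks of single genes kept direction and call. These checks covered only changes with an unadjusted p under 0.05 in the limma fit over all samples, so their direction was likely to hold. The alternative with no fold threshold reuses that fit, so a call could not be lost there. The count is therefore not a measure of how robust the results are in general. With 2 samples per group and no depth in TPM, small changes and low rows were not resolved.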

Other observations

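Other short RNA rows outside the named families were few. Mir142hg was at 26.1 and 21.6 TPM in NC, 17.6 and 28.6 in LPS, 17.6 and 0 in C498, and 15.7 and 0 in C498+LPS, while Mir146 was at 5.64 and 4.38 TPM in NC, 11.2 and 10.8 in LPS, 3.31 and 2.52 in C498, and 8.62 and 6.09 in C498+LPS. Rmrp, the RNA of RNase MRP, was at 2.60 TPM in 1 NC sample, 27.5 in 1 LPS sample and 0 in the other 6.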
